A study of Mus musculus with 4 samples.

Results

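The genes described here are Fos, Fosb, Fosl1, Fosl2, Jun, Junb, Jund and Atf3, whose products form the transcription factor AP-1, together with Egr1 and Myc. They were found as probes whose name in the scanner files is a RefSeq transcript of one of these genes, which gave 14 probes for 10 genes, out of 41174 probes on the array. Messenger RNA was measured in Hepa1c1c7, a mouse hepatoma cell line, on 4 arrays. Cells of 2 arrays had been exposed for 6 hours to 100 µM diethyl maleate (DEM), a compound that depletes glutathione by binding its thiol and that the series title names as an activator of NRF2, and cells of the other 2 had received the solvent dimethyl sulfoxide (DMSO) for the same time. The samples carry no other allele or agent in the labels, and all come from 1 cell line, which limits them as a model of liver. Each group is stated to hold independent RNA samples, but separate cultures are not mentioned. The spread behind the p-values is therefore that between these samples and may be technical in origin. The extract protocol speaks of liver tissue although the other labels name the cell line.

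AP-1 is a dimer of basic leucine zipper proteins. JUN, JUNB and JUND can pair with each other or with a FOS family protein, FOS family proteins do not pair stably among themselves, and ATF3 pairs with JUN proteins and often represses. The genes of FOS, JUN, JUNB, ATF3 and the zinc finger factor EGR1 are immediate early genes, which growth factors and stress switch on within minutes through kinases that act on factors already present, and many of their transcripts are short-lived. MYC, a helix-loop-helix factor that works as a dimer with MAX, drives ribosome production and growth.

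On each array 50.4% to 52.6% of probes were well above background, the scanner software's test of a spot against its surroundings, and 0 spots were saturated. The treatment showed in the NRF2 targets Hmox1, which breaks down haem, and Nqo1, which reduces quinones (up 23.4-fold, limma adjusted p = 0.00442, and up 5.10-fold, limma adjusted p = 0.0125, respectively). When dim probes were not filtered out, no gene passed, these included (limma adjusted p = 0.105 and 0.202). Of 7 hepatocyte markers, Alb, Afp, Krt8 and Krt18 were well above background on all 4 arrays, Apob on 3, and Ttr and Hnf4a on none. The fibroblast markers Col1a1, Pdgfrb and Dcn were also well above background on all 4 arrays, as were the leukocyte marker Cd14, the endothelial marker Lyve1 and the bile duct markers Krt19 and Sox9. Col1a2 and the leukocyte marker Ptprc were so on 1 array, and Adgre1, Epcam and the endothelial markers Pecam1 and Cdh5 on none. None of the markers tested passed the threshold, the widest changes being those of Apob (log2 change 3.45, limma adjusted p = 0.138) and Sox9 (−0.69, limma adjusted p = 0.0782), whose part in the results was not tested.

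Of the 10 genes, 9 could be tested, Fosb being too dim, and 1 passed the threshold. Junb fell, and 0 of the 9 rose. Fosl1, Atf3 and Egr1 had positive changes and Jund a negative one that did not pass, and Fos, Fosl2, Jun and Myc lay closer to 0. The 1 call among 9 genes is 11.1%, where limma called 1.22% of all 15537 genes tested (0.714% higher and 0.508% lower in DEM, at a Benjamini-Hochberg adjusted p under 0.05). Of these 15537 entries 10953 carried a gene symbol. The rest were transcripts without a symbol, counted as genes under their name in the scanner files, and they enter every share of all genes. All genes gave 111 higher and 79 lower calls, 404 and 163 with arrays scaled on their median, and 157 and 252 with arrays scaled on spike-in probes. The median change of the 9 genes was 0.01 on the log2 scale and that of all genes −0.01. In 3 of the 9 genes the DEM arrays lay above both DMSO arrays and in 3 below, which held for 24.9% and 25.6% of all genes (50.6% in either direction). At an unadjusted limma p under 0.05, 1 of the 9 was higher and 2 were lower, against 9.02% and 10.2% of all genes. Signal on these arrays is per amount of RNA, so fewer cells with a transcript and less of it per cell cannot be told apart.

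**Figure D1:**
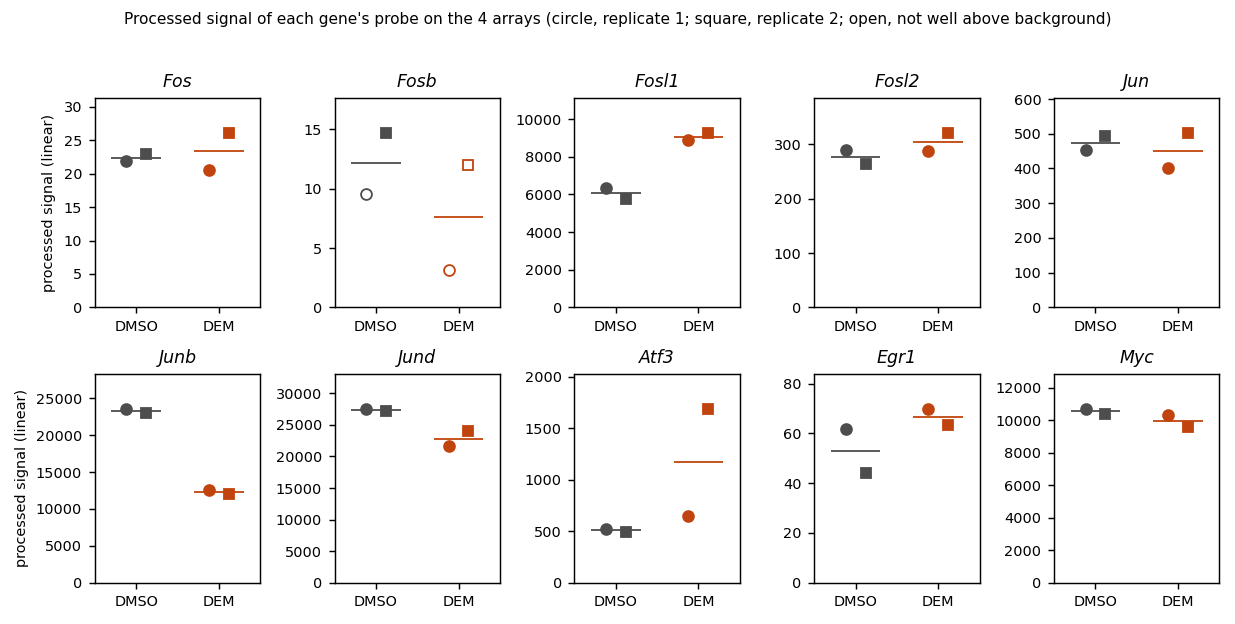
Processed signal (linear scale, from 0) of the probe used for each of the 10 genes, in DMSO and DEM, with a circle for replicate 1, a square for replicate 2, an open symbol where the probe was not well above background and a line at the mean of the 2 arrays. Junb sits at 23600 and 23000 in DMSO and 12500 and 12000 in DEM, while the 2 DEM arrays of Atf3 are at 650 and 1690.

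Among the JUN genes, Junb, which encodes a JUN family subunit that activates less strongly than JUN at many sites, moved most. Its processed signal was 23600 and 23000 on the DMSO arrays and 12500 and 12000 on the DEM arrays. The arrays of a group lay close together and the groups did not overlap. Junb was 1.96-fold lower in DEM (log2 change −0.97 ± 0.08, SE, n = 2 arrays per group, 95% interval −1.19 to −0.75, limma adjusted p = 0.0356). The log2 values of its 2 DEM arrays differed by 0.0066 and those of its 2 DMSO arrays by 0.015, and 96.5% and 94.1% of all genes had a wider gap. A second Junb probe read 7720 and 7900 in DMSO and 4250 and 4340 in DEM. With every probe tested on its own, that probe fell by 0.90 on the log2 scale and passed too (limma adjusted p = 0.0433, with 1.01% of 21140 probes called). Leaving out 1 array left the change between −0.98 and −0.96 but ended the call. Without the filter on dim probes the limma adjusted p of Junb was 0.202, in a setting where no gene passed, Hmox1 and Nqo1 included. Over 15 alternatives the adjusted p ran from 0.00024 to 0.233.

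Jund encodes the JUN family subunit that resting cells also make. It read 27600 and 27200 in DMSO and 21600 and 24000 in DEM, so both DEM arrays were below both DMSO arrays. The log2 change was −0.31 ± 0.11 (95% interval −0.60 to −0.02) and did not pass (limma adjusted p = 0.238). It was −0.21 without DEM replicate 1, and −0.16 ± 0.16 with arrays scaled on their median. Jun, the founding member of the family and the partner that FOS proteins most often take, read 453 and 492 in DMSO and 401 and 502 in DEM. The groups of Jun overlapped: after scaling, one DEM array was the lowest of the 4 and the other lay between the DMSO arrays. Its log2 change was −0.12 ± 0.16 (95% interval −0.55 to 0.32, limma adjusted p = 0.763), and it turned to 0.03 with arrays scaled on their median and to 0.07 without DEM replicate 1.

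Among the FOS genes, Fosl1 had the largest change. It encodes FRA1, a FOS relative without the strong activation domain of FOS. Fosl1 read 6350 and 5780 in DMSO and 8890 and 9260 in DEM. The groups did not overlap. The signal was 1.46-fold higher (log2 change 0.54 ± 0.09, 95% interval 0.29 to 0.80), and this did not pass the threshold (limma adjusted p = 0.0876). With normexp background correction, or with a variance that follows intensity, it passed (limma adjusted p = 0.0241 and 0.00773). Over 15 alternatives its change ran from 0.48 to 0.69 and its adjusted p from 0.00773 to 0.902. The highest came with spike-in scaling, where the genes named here all had the same SE, 0.305, whatever their own spread.

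Fosl2 encodes FRA2, another FOS relative without that domain. Its probe read 290 and 264 in DMSO and 288 and 321 in DEM, with the groups overlapping. The log2 change was 0.09 ± 0.11 (95% interval −0.21 to 0.40, limma adjusted p = 0.715), and −0.01 without DEM replicate 2. A second Fosl2 probe, at 6.46 to 13.4, was not well above background on any array and was not tested.

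Fos itself was dim. Its 10 spots gave mean signals of 21.9 and 22.9 in DMSO and 20.6 and 26.1 in DEM, against a lowest signal well above background of 12.0 to 15.7 depending on the array. The DEM arrays lay on either side of the DMSO arrays. The log2 change was 0.01 ± 0.16 (95% interval −0.42 to 0.44, limma adjusted p = 0.984), and it turned to −0.05 with spike-in scaling, −0.06 with normexp and −0.19 without DEM replicate 2. Fosb, the remaining FOS relative, read 9.57 and 14.7 in DMSO and 3.18 and 12.0 in DEM and was well above background on 1 DMSO array alone. No fold is given for it.

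Atf3 encodes a stress-induced zipper protein that is also a known target of ATF4. It read 522 and 497 in DMSO and 650 and 1690 in DEM. Both DEM arrays lay above both DMSO arrays, but they lay far from each other. After scaling they differed 2.70-fold, a gap that 133 of 15537 genes (0.856%) exceeded, while the DMSO arrays differed 1.01-fold. The log2 change was 1.00 ± 0.49 (95% interval −0.32 to 2.32), which did not pass (limma adjusted p = 0.365). DEM replicate 2 decided the size: the change was 0.28 without it (limma adjusted p = 0.518), and 1.71 with a call when DEM replicate 1 was left out instead (limma adjusted p = 0.0247). Over 15 alternatives the adjusted p ran from 0.0247 to 0.684.

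Egr1 encodes a zinc finger factor that serum and stress induce. It read 61.9 and 44.2 in DMSO and 70.0 and 63.4 in DEM. The groups did not overlap, but the lower DEM array and the higher DMSO array were close. The log2 change was 0.31 ± 0.17 (95% interval −0.15 to 0.77, limma adjusted p = 0.417), and it was 0.09 both with normexp and without DMSO replicate 2, and 0.52 without DMSO replicate 1. Its relatives Egr2, Egr3 and Egr4 were not tested: their probes were well above background on 0, 1 and 0 of the 4 arrays, the 1 being Egr3 at 25.8 on DEM replicate 1 against 2.46 to 3.02 on the other arrays.

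Myc was well above background throughout and had the narrowest interval of those that did not pass. Its main probe, with 10 spots, gave mean signals of 10719 and 10396 in DMSO and 10299.5 and 9564 in DEM. All values lay within a small range, with both DEM arrays just below both DMSO arrays. The log2 change was −0.13 ± 0.08 (95% interval −0.36 to 0.10, limma adjusted p = 0.482). For this probe and this scaling alone, a change beyond 1.07-fold up or to below 0.781 of the DMSO level lies outside the interval. The change was 0.01 ± 0.14 with arrays scaled on their median. The other Myc probes read 4250 and 4280 in DMSO against 4430 and 3970 in DEM, and 379 and 390 against 367 and 312. With every probe tested on its own, they gave log2 changes of −0.07 and −0.23 and did not pass (limma adjusted p = 0.776 and 0.367). The interval of the last probe, −0.52 to 0.06, reached lower than that of the main probe.

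**Figure D2:**
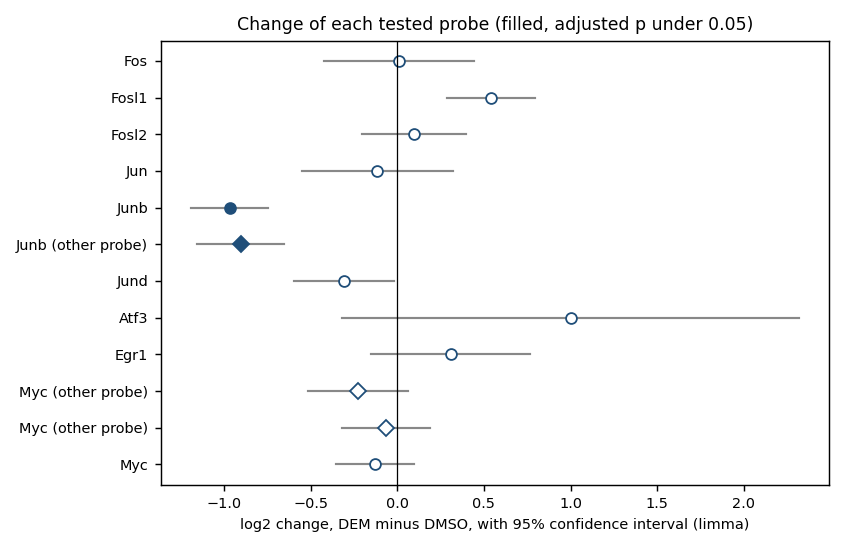
Log2 change, DEM minus DMSO, of the 12 probes that could be tested, with the 95% confidence interval from limma. Circles are the probes used for the 9 genes, from the test of genes. Diamonds are the other probes, from a separate test of every probe on its own. Filled symbols have an adjusted p under 0.05 in their own test. Both Junb probes are filled and lie near −0.97 and −0.90, and Atf3 has the widest interval, from −0.32 to 2.32.

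For Fos, Jun and Myc the array carries 10 spots of 1 probe, which separates the error of a spot from the difference between arrays. Before scaling, the Jun spots ran from 417 to 471 and from 473 to 520 on the DMSO arrays, and from 385 to 409 and from 492 to 518 on the DEM arrays. All unflagged spots of DEM replicate 1 therefore lay below all those of the other 3 arrays, and the spots of DEM replicate 2 lay within the range of DMSO replicate 2. The SD of the spots of Jun within an array was 0.026 to 0.054 on the log2 scale, whereas the 2 DEM arrays differed by 0.38 after scaling. The spots are copies on 1 hybridisation and are no replicates of the treatment. For Myc the SD of the spots was 0.016 to 0.036, with the DEM arrays 0.054 apart. For Fos, near background, it was 0.15 to 0.24, with the DEM arrays 0.39 apart.

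**Figure D3:**
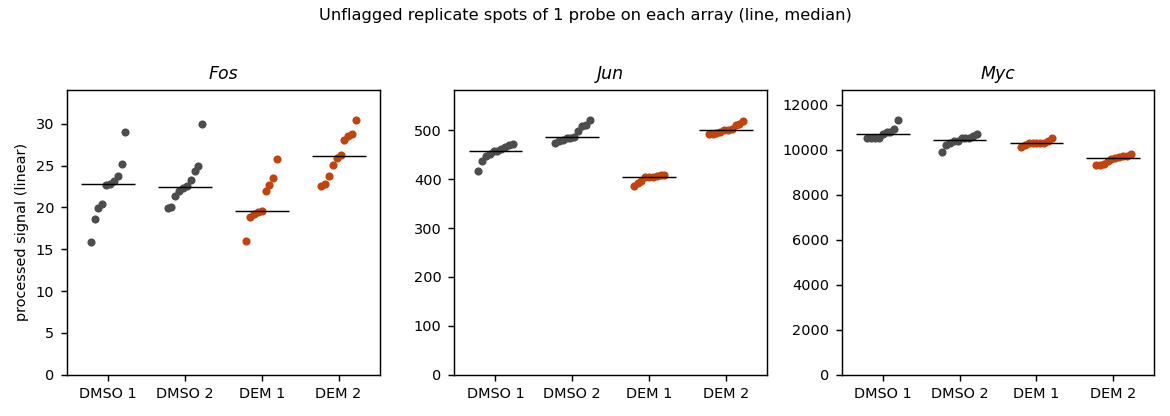
Processed signal (linear scale, from 0) of every unflagged spot of the Fos, Jun and Myc probes on each of the 4 arrays, in ascending order within an array, with a line at the median. The Jun medians are 458 and 486 in DMSO and 404 and 501 in DEM, and the spots of each array lie close to its median.

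The promoters of Junb, which passed the threshold, and of Jun, Fos and Atf3, which did not, are shown as the stretch of 250 bases before the gene's start, so that the letters of genes with different responses can be compared. Sequences are those of RefSeq on GRCm38.p6, from a promoter table in which 7 of the 10 genes were matched, whereas the array is annotated on mm9. The promoters of Fosl1, Egr1 and Myc were not among those searched, and all promoters of a single chromosome were left out of the search. Capitals mark matches to TGACG, the core of the cyclic AMP response element, or to TGACNTCA, the full element or its Jun-type variant, on either strand (a full palindromic element would match both).
Junb (GRCm38.p6, chr8:84978749-84978998, minus strand): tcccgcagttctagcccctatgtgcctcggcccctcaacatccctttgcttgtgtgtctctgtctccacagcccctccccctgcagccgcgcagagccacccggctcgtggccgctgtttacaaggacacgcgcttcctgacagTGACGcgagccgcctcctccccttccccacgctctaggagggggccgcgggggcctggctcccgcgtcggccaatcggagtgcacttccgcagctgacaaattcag
Jun (GRCm38.p6, chr4:95052223-95052472, minus strand): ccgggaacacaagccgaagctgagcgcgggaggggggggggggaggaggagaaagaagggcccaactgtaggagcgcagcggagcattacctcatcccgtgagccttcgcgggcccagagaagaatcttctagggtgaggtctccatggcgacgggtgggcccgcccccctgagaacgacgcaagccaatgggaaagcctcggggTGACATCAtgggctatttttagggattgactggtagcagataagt
Fos (GRCm38.p6, chr12:85473640-85473889, plus strand): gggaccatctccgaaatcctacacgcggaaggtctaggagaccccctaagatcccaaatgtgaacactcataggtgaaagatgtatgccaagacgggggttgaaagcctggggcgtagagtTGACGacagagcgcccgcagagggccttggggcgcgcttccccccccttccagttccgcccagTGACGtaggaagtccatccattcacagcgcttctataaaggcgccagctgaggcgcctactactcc
Atf3 (GRCm38.p6, chr1:191183334-191183583, minus strand): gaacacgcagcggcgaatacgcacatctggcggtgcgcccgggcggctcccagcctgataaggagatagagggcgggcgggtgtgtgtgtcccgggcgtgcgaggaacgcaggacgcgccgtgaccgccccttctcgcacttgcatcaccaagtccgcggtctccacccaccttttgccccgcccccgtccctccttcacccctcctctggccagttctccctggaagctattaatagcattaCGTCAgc
Junb has 1 match to TGACG, 106 to 102 bases before the start. Fos has 2, at 129 to 125 and at 66 to 62 bases. Atf3 has 1 on the opposite strand, 7 to 3 bases before the start, and Jun has none but matches TGACNTCA at 45 to 38 bases. Among the 7 genes 4 held TGACG and 1 held TGACNTCA, against 17.8% and 7.49% of 32851 promoters in the same window. None of the 7 held a CArG box, the serum response element (1.47% of the promoters searched), or the AP-1 element TGANTCA (6.75%). None held the antioxidant response element core TGACNNNGC (10.2%) or the MYC E-box CACGTG (6.02%). This says nothing of Egr1, whose promoter was not searched. A match is a description of letters and not a site, and elements farther from the start were not searched.

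By distance between log2 values centred over the 4 arrays, the genes with the pattern most like that of Junb were Amer1 (distance 0.060), Cbx8 (0.088), Lmln (0.093), Svep1 (0.12) and H1f1 (0.13). Their log2 changes were −0.97, −0.99, −0.94, −0.86 and −1.005, a likeness to Junb that their choice fixed. With normexp the changes of Cbx8, Lmln, Svep1 and H1f1 shrank to −0.65, −0.33, −0.24 and −0.35, against −0.90 for Junb. Lmln, Svep1 and H1f1 were dim, with scaled log2 values between −5.11 and −3.88, where Junb lay between 4.51 and 5.49. The values of Fos, near background, fell inside the range of these dim genes. Svep1 was not tested when probes had to be well above background on all 4 arrays. The measure rests on 4 values a gene.

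Among other immediate early genes, 1 of 25 tested fell (4%, against 1.22% of all genes), 0 rose and 24 did not pass, with a median log2 change of −0.06. The fall was in Ier5l, a relative of the immediate early gene Ier5. It read 1910 and 1690 in DMSO and 783 and 801 in DEM, and was 2.33-fold lower (log2 change −1.22 ± 0.10, limma adjusted p = 0.0332). Leaving out any 1 array ended that call (limma adjusted p = 0.206 and 0.211 without DMSO replicate 1 and 2, 0.0569 and 0.0605 without DEM replicate 1 and 2), as did the replicate number as a block (0.0521), and over all alternatives the adjusted p ran from 0.000472 to 0.211. Genes of the list lay on both sides of 0. Chosen after their values were seen, Zfp36, whose product destabilises mRNAs with AU-rich elements, read 146 and 164 in DMSO and 307 and 406 in DEM (log2 change 1.15 ± 0.19, limma adjusted p = 0.0808), and Dusp1, a MAP kinase phosphatase, read 1060 and 1010 against 1810 and 1920 (0.81 ± 0.09, limma adjusted p = 0.0529). Dusp6, a phosphatase of ERK, read 6380 and 5770 against 3950 and 3760 (−0.70 ± 0.09, limma adjusted p = 0.0572). Of 15 alternatives Zfp36 passed in 5, Dusp1 in 4 and Dusp6 in 3, normexp and trended variances among them for each. Nr4a1, an orphan nuclear receptor, read 4800 and 4320 in DMSO and 6780 and 12400 in DEM (0.97 ± 0.32, limma adjusted p = 0.226), with DEM replicate 2 far above replicate 1 as for Atf3. The change of Nr4a1 was 0.51 without DEM replicate 2 and 1.43, with a call, without DEM replicate 1 (limma adjusted p = 0.261 and 0.0386, within a range of 0.0386 to 0.546 over 15 alternatives). At an unadjusted limma p under 0.05, 5 genes of the list were higher and 7 lower (48% in all, against 19.2% of all genes).

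Of the other zipper proteins related to AP-1, 0 of 17 tested passed, where 1.22% of all genes did. At an unadjusted limma p under 0.05, 7 were higher and 4 lower (64.7%, against 19.2% of all genes). The median was 0.17. The largest change was that of Creb5, which binds cyclic AMP response elements and can pair with JUN. Creb5 read 100 and 147 in DMSO and 32.7 and 58.1 in DEM (log2 change −1.52 ± 0.37, limma adjusted p = 0.148). It passed with normexp, where the change was −0.82, with spike-in scaling and with the replicate block (limma adjusted p = 0.0419, 3.22e-05 and 0.0488), and its adjusted p over 15 alternatives reached 0.419. The value with spike-in scaling rests on the shared SE of 0.305 and not on the spread of Creb5 itself. Chosen after their values were seen, Creb1, the main cyclic AMP responsive factor, read 472 and 421 against 703 and 729 (0.64 ± 0.10, limma adjusted p = 0.0718), and Jdp2, a repressor that pairs with JUN proteins, read 4940 and 4720 against 6020 and 5980 (0.27 ± 0.08, limma adjusted p = 0.201). Creb1 passed in 4 of 15 alternatives and Jdp2 in 1, with normexp, and Jdp2 was at 0.42 with median scaling. The genes that signal to AP-1 and EGR promoters had 0 calls among 29 and a median of 0.03. At an unadjusted limma p under 0.05, 2 were higher and 2 lower (13.8%, against 19.2% of all genes). Map2k6, a kinase that activates p38, had the largest change, at 174 and 161 in DMSO and 120 and 106 in DEM (−0.61 ± 0.09, limma adjusted p = 0.075). Map2k6 passed in 3 of 15 alternatives, among them normexp, where the change was −0.40 (limma adjusted p from 0.0408 to 0.442 over all 15).

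Among genes known as AP-1 targets 0 of 20 tested passed, where 1.22% of all genes did. At an unadjusted limma p under 0.05, 2 were higher and 4 lower (30%, against 19.2% of all genes), and the median was −0.15. Chosen after their values were seen, Mmp3, Mmp10, Mmp13 and Spp1 differed more between replicate numbers than between groups. Mmp3 read 1040 and 417 in DMSO and 1070 and 461 in DEM (SE 0.59 on the log2 scale). Mmp13 read 1100 and 518 against 1620 and 840 (SE 0.47). Replicate 1 was the higher in both groups for each of these genes, which widened their SE. Il6, an inflammatory cytokine that NF-kB also drives, read 232 and 340 in DMSO and 95.4 and 116 in DEM (log2 change −1.46 ± 0.25, limma adjusted p = 0.0842). Il6 passed in 6 of 15 alternatives, the replicate block among them (limma adjusted p = 0.0488), with changes from −1.76 to −1.05 and adjusted p from 8.17e-05 to 0.293. Of 13 cofactors and targets of EGR1, 1 fell (7.69%, against 1.22% of all genes), 0 rose and 12 did not pass. The median was −0.10. In this list 1 gene was higher and 2 were lower at an unadjusted limma p under 0.05 (23.1%, against 19.2% of all genes). Chosen after its values were seen, the higher gene was Gdf15, at 1320 and 1530 in DMSO and 2970 and 4590 in DEM (log2 change 1.34 ± 0.26, limma adjusted p = 0.106). Of the lower 2, Spry1, also chosen so, read 4340 and 5170 against 2240 and 2320 (−1.10 ± 0.14, limma adjusted p = 0.0552). Gdf15 and Spry1 both passed with normexp and with median scaling. Pdgfb, which encodes a chain of platelet-derived growth factor, read 350 and 383 in DMSO and 145 and 152 in DEM and was 2.54-fold lower (−1.34 ± 0.11, limma adjusted p = 0.0348). That call was lost without any 1 array (limma adjusted p = 0.183 and 0.220 without DMSO replicate 1 and 2, 0.0544 and 0.0542 without DEM replicate 1 and 2), and without the filter on dim probes (0.202), within a range of 0.000432 to 0.220 over 15 alternatives. The medians of both target lists, and of the other immediate early genes, were at −0.00074, 0.04 and 0.09 with arrays scaled on their median, where the median of all genes was 0.14.

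Around MYC, 0 of 18 partners and antagonists and 0 of 34 targets passed. At an unadjusted limma p under 0.05 there were 1 higher and 1 lower among the partners and 1 higher and 2 lower among the targets (11.1% and 8.82%, against 19.2% of all genes). The medians were 0.05 and −0.01. Max, the obligate partner of MYC, read 17600 and 15800 in DMSO and 19400 and 19000 in DEM (log2 change 0.16 ± 0.09, limma adjusted p = 0.415), as chosen after its values were seen. Mxd1, which competes with MYC for MAX, had the largest change of the partners, at 68.8 and 56.6 against 85.0 and 93.7 (0.47 ± 0.13, limma adjusted p = 0.174). With normexp Mxd1 was at 0.19 and Max at 0.28, and Max ran from 0.10 with spike-in scaling to 0.31 with median scaling. Tert, the catalytic subunit of telomerase, had the largest among the targets, at 223 and 225 against 156 and 120 (−0.75 ± 0.14, limma adjusted p = 0.0956), and passed in 2 of 15 alternatives, normexp and trended variances.

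**Figure D4:**
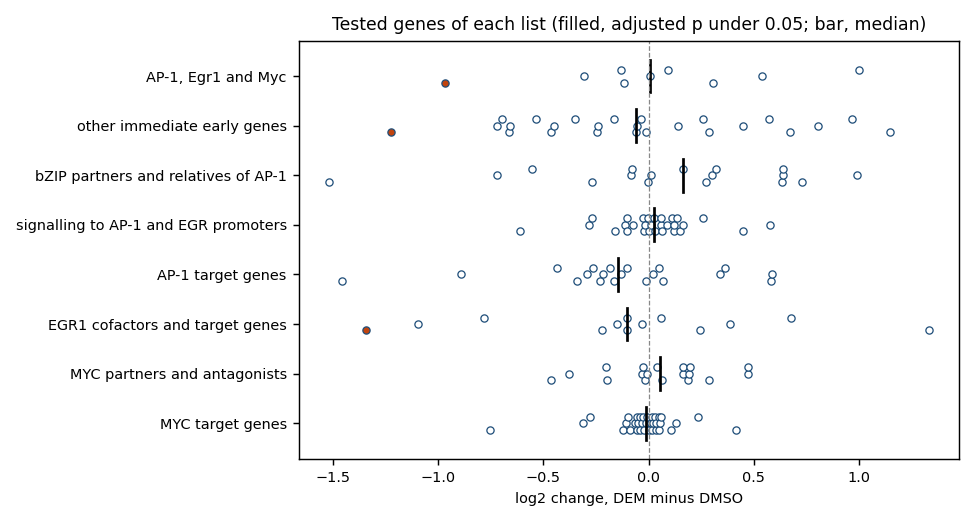
Log2 change, DEM minus DMSO, of each tested gene in 8 lists, with a bar at the list's median and filled points for an adjusted p under 0.05 (limma). The 3 filled points are Junb at −0.97, Ier5l at −1.22 and Pdgfb at −1.34.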

How the data were processed

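RNA from the cell line was measured on 4 arrays. The label protocol states an input of 500 ng RNA for linear amplification. Per the file headers, spots were quantified by Agilent Feature Extraction 10.7.3.1 (protocol GE1_107_Sep09), all on 1 slide and in 1 scan, so neither could be tested as a batch. The deposited values are processed signals, an intensity on a linear scale after background subtraction, with flags for outliers and background; the authors' value table holds the same intensity for all 45018 spots.

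Log2 signals were scaled on each array's 75th percentile, flagged spots dropped and spots of a probe averaged. Probes were named through RefSeq (GRCm38.p6): 26690 of 41174 received a symbol. The others kept their name in the scanner files, and each such name counted as a gene. Probes entered the test when 2 or more arrays had them well above background, and a gene was represented by its brightest probe. Groups were compared with limma 3.58.1 (lmFit, eBayes, Benjamini-Hochberg over 15537 genes, threshold 0.05) in R 4.3.3, checked on simulated data. Precision is limited by the 2 arrays per group. Alternatives were normexp (median spot signal, offset 50), other scalings, filters, probe rules and variance models, the replicate block and leaving out each array. The authors' value table also counts as an alternative, though it repeated the main values. With spike-in scaling the genes named here shared an SE of 0.305, so their adjusted p there followed the size of the change alone. The genes and the 7 other lists were chosen with earlier results of these data known. Genes named from a list are its called genes, at most 3, or the tested gene with the largest change; others are marked as chosen after their values were seen.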

Additional observations from a re-analysis of the deposited data

How the results depend on the processing

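Junb kept its direction in all 15 alternatives, with changes from −1.03 to −0.82, and lost its call in 5. Its direction was fixed in advance in those that altered only the filter, the variance model or the block, and in the value table, which repeated the main values. Of the 9 genes tested, 2 were called with normexp and with trended, robust variances, 0 without the filter on dim probes, and 0 to 1 when 1 array was left out. The count over all genes, 190, became 807 with normexp, 93 with quantile normalization, 567 with median and 409 with spike-in scaling, 426 when probes had to be well above background on all 4 arrays, 882 with trended, robust variances, and 0 without the filter (limma; with unadjusted p under 0.05, 1246 were higher and 1919 lower). Leaving out 1 array gave 0 without DMSO replicate 1 or 2, 121 without DEM replicate 1 and 102 without DEM replicate 2, a range of 0 to 121. Replicate numbers are not stated to pair the arrays (correlation of deviations 0.138 over all genes), although Mmp3, Mmp10, Mmp13 and Spp1 differed more by replicate number than by treatment. With the replicate block 143 genes were called, 1 of the 9 genes, 1 zipper relative, 1 AP-1 target and 0 other immediate early genes. Other immediate early genes called, 1 in the report, were 11 with normexp, 3 with median and 2 with spike-in scaling, 6 with the filter on all 4 arrays, 2 with the mean of a gene's probes or every probe on its own, 10 with trended variances, 0 without the filter and 0 to 1 with 1 array left out. Zipper relatives called were 6, 4, 1, 3 and 5 with normexp, median scaling, spike-in scaling, the filter on all 4 arrays and trended variances. Under those settings AP-1 targets called were 3, 1, 1, 2 and 4, and EGR1 cofactors and targets 3, 3, 3, 2 and 2, the latter 0 without the filter and 0 to 2 with 1 array left out. Signalling genes called were 2, 1, 0, 2 and 3, and MYC targets 1 with normexp and 2 with trended variances. Fos turned to −0.064 with normexp and −0.049 with spike-in scaling, Jun and Myc to 0.030 and 0.015 with median scaling, Odc1, a MYC target at 0.05, to −0.061 with normexp and −0.0087 with spike-in scaling, and Ncl, another at −0.02, to 0.12 with median scaling and 0.075 with the mean of its probes. With 1 array left out, Fos ran from −0.19 to 0.21, Fosl2 from −0.0099 to 0.20, Jun from −0.30 to 0.073 and Ncl from −0.14 to 0.093. Median scaling moved the median of all genes from −0.01 to 0.14, and spike-in scaling to −0.06. Of the genes nearest to Junb, the replicate block ended the calls of Cbx8, Lmln, Svep1 and H1f1, and normexp and trended, robust variances those of the last 3. Quantile normalization ended the calls of Amer1, Lmln, Svep1 and H1f1, and spike-in scaling that of Svep1. Without the filter on dim probes all these calls ended. The cause of these differences was not tested. Fosb, Egr2, Egr3 and Egr4 lay near background.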
